A study of Homo sapiens with 2 samples.

Results

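Genes of xenobiotic and intermediary metabolism were examined in HN6 cells, an established line of human tongue squamous cell carcinoma. The group comprises cytochrome P450 enzymes, alcohol dehydrogenases (ADH), aldehyde dehydrogenases (ALDH), aldo-keto reductases of family AKR1, UDP-glucuronosyltransferases (UGT) and glutathione S-transferases (GST). Members were chosen by gene symbol, by a description without the word pseudogene, and by at least 20 counts in both libraries together. Of 25534 listed genes, 74 matched the symbol pattern. A description naming a pseudogene set aside 3 of these and low counts a further 23, which left 48 members with 47 distinct symbols. The pattern takes in P450 families whose number begins with 1 to 4, and it leaves out ALDH2, CYP51A1 and CYP7B1. The comparison addresses which transcripts differ when the zinc finger protein ZNF582 is overexpressed in such cells. There was 1 library of cells transfected with a ZNF582 expression plasmid and 1 library of control cells labelled as wild type. An empty vector is not mentioned for the control. Each group is a single library, so culture and transfection cannot be told apart from ZNF582.

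These enzymes act in sequence. Phase I enzymes, the P450s, alcohol and aldehyde dehydrogenases and aldo-keto reductases, add or expose a polar group on drugs, carcinogens, steroids, retinoids and lipid aldehydes. Phase II enzymes, the UGTs and GSTs, then attach glucuronic acid or glutathione. CYP1 genes are classical targets of the aryl hydrocarbon receptor, AKR1C and several GST genes are known targets of the transcription factor NRF2, and many of the remaining P450 and UGT genes are expressed mainly in liver. Oral epithelium meets tobacco smoke and ethanol directly, and is a tissue where these enzymes have been studied for that reason.

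The ZNF582 library held 17792172 counts and the control library 14765244. ZNF582 had 277387 counts in the ZNF582 library against 14 in control cells, in the direction of its label. Of 10 squamous markers 10 were listed, with summed levels of 699 FPKM (fragments per kilobase of transcript, scaled to depth) in the ZNF582 library against 598 in control cells. KRT17 (2780 against 642 counts) and KRT6A (57 against 24) were called higher, the list's median log2 fold was 0.51, and KRT14 was at 0.366 against 0.163 FPKM. Of 10 hepatocyte markers 4 were listed, summing to 4.11 FPKM in the ZNF582 library against 6.01 in control cells, nearly all from SERPINA1. Of 6 leukocyte markers 1 was listed, at 0.175 against 0.0527 FPKM. Simple epithelial markers summed to 292 FPKM in the ZNF582 library against 377 in control cells, with KRT19 called lower (11 against 25 counts). Endothelial markers summed to 0.25 against 0.343 FPKM, with VWF called higher (16 against 5 counts). CDH5 (29 against 43 counts) and PECAM1 (5 against 7) were not called. Fibroblast markers summed to 1.29 against 2.22 FPKM, with LUM and PDGFRB called lower and COL1A1 (207 against 205 counts) not called. The part of these levels in the results below was not tested. With 1 library per group no difference has a replicate check, the spread between cultures was not measured, and no p-value was computed. Intervals below are exact 95% Clopper-Pearson intervals of the fold that cover counting error only. A call required a fold of at least 2 with an interval that excluded 1. In bulk RNA, fewer expressing cells and less RNA per cell cannot be told apart.

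Of the 48 members, 3 were higher and 6 lower in the ZNF582 library by this rule, and 39 were called neither. The higher genes were AKR1C1, AKR1C2 and ALDH8A1. The lower genes were CYP2D6, CYP2U1, CYP24A1, ALDH1A1, ALDH1L1 and UGT1A3. The called share was 18.8%, against a background of 9.27% (1545 of 16669 genes examined, 4.25% higher and 5.02% lower). Most calls rested on few reads. Of the 13 members with fewer than 100 counts 7 were called, or 53.8%, against 19.1% of all genes at that depth. Of 23 members with 100 to 1000 counts 2 were called, or 8.70%, against 8.66% of all genes. Of the 12 members above 1000 counts 0 were called, against 3.39%. The enzymes with the most reads stayed within 2-fold. The split of calls over all genes depended on scaling. It was 709 higher against 836 lower with TMM factors and 565 against 1097 with total counts alone, whereas no member's call differed between these scalings.

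The median log2 fold over the 48 members was -0.15 (medians of the lower and upper bounds -0.43 and 0.10), and 31 lay below 0. The median over all genes examined was -0.01, with 50.5% below 0. Scaling by total counts alone moved the median of all genes to -0.12 and that of the members to -0.26. It also turned the sign of 6 members, each within 0.11 of 0 on the log2 scale with TMM factors. The values just inside the limit of 20 counts were those of CYP26B1, with 12 counts in the ZNF582 library against 12 in control cells. Just outside lay GSTM2, with 6 against 13 counts, and ALDH1A2, with 6 against 12.

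**Figure D1:**
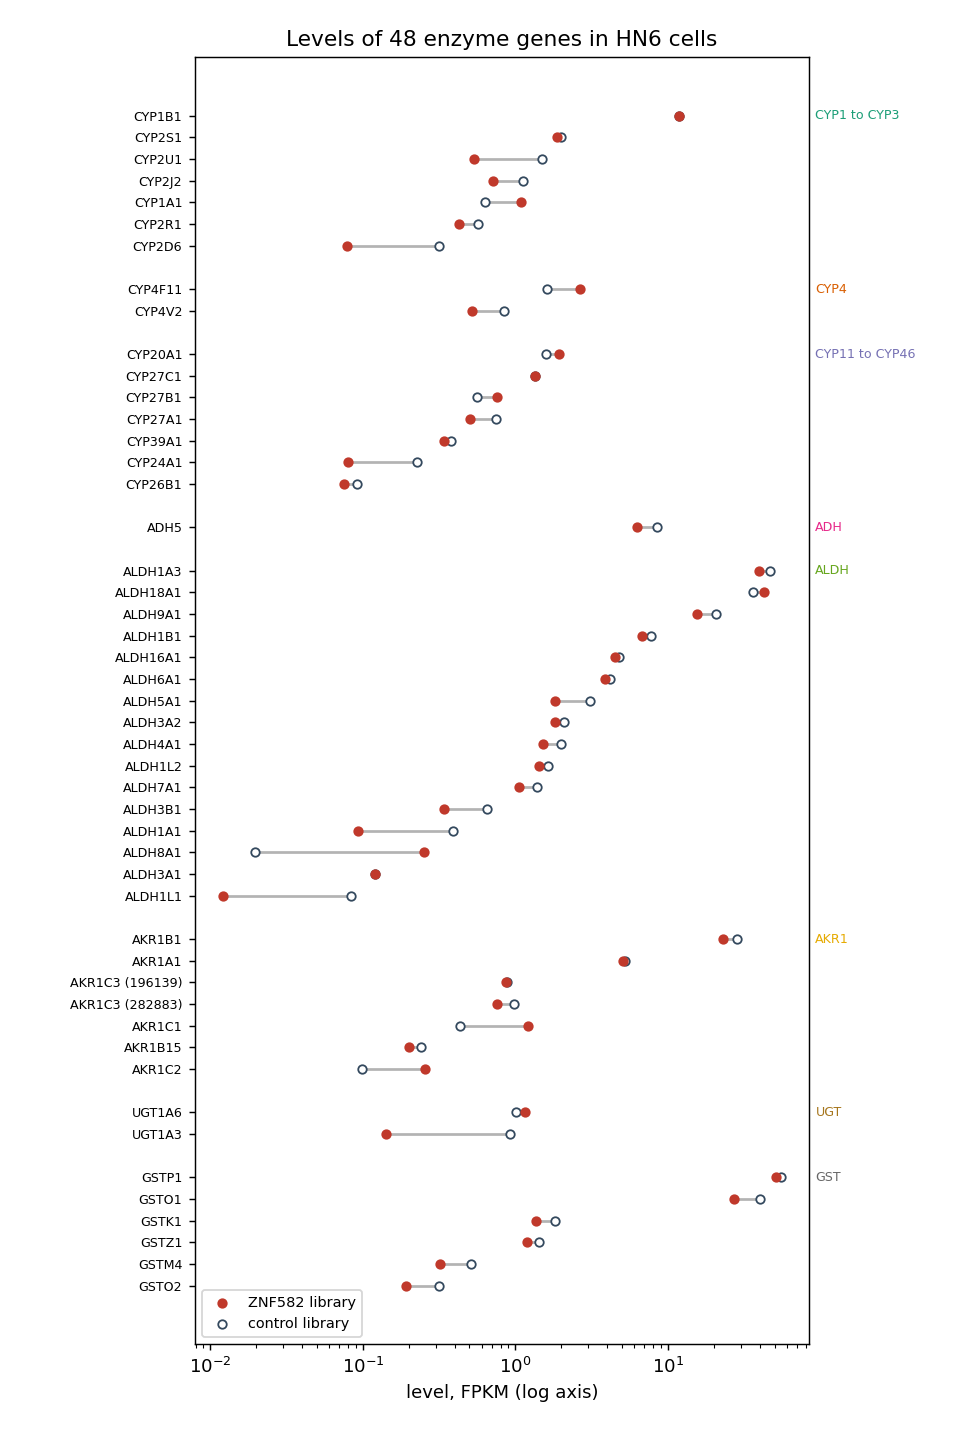
Level of each of the 48 members in FPKM on a log axis, by family, with filled points for the ZNF582 library and open points for the control library; the 2 AKR1C3 records carry the last 6 digits of their identifiers. Levels ran from 50.7 against 55.3 FPKM for GSTP1 down to 0.0121 against 0.0838 FPKM for ALDH1L1.

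Levels spanned more than 3 orders of magnitude, as the plot of FPKM by family shows. 7 members were at 10 FPKM or more in both libraries, namely GSTP1, ALDH1A3, ALDH18A1, GSTO1, AKR1B1, ALDH9A1 and CYP1B1. 20 members stayed below 1 FPKM in both libraries, and 7 of the 9 called genes were among those 20. AKR1C1 and CYP2U1 were the called genes that reached 1 FPKM in either library. Summed over members, the level was 266 FPKM in the ZNF582 library against 302 FPKM in control cells. FPKM values carry no TMM factors, so ZNF582 to control ratios of FPKM lie lower than the folds given here. The members' summed counts with TMM factors gave a log2 fold of -0.05 (-0.08 to -0.03).

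**Figure D2:**
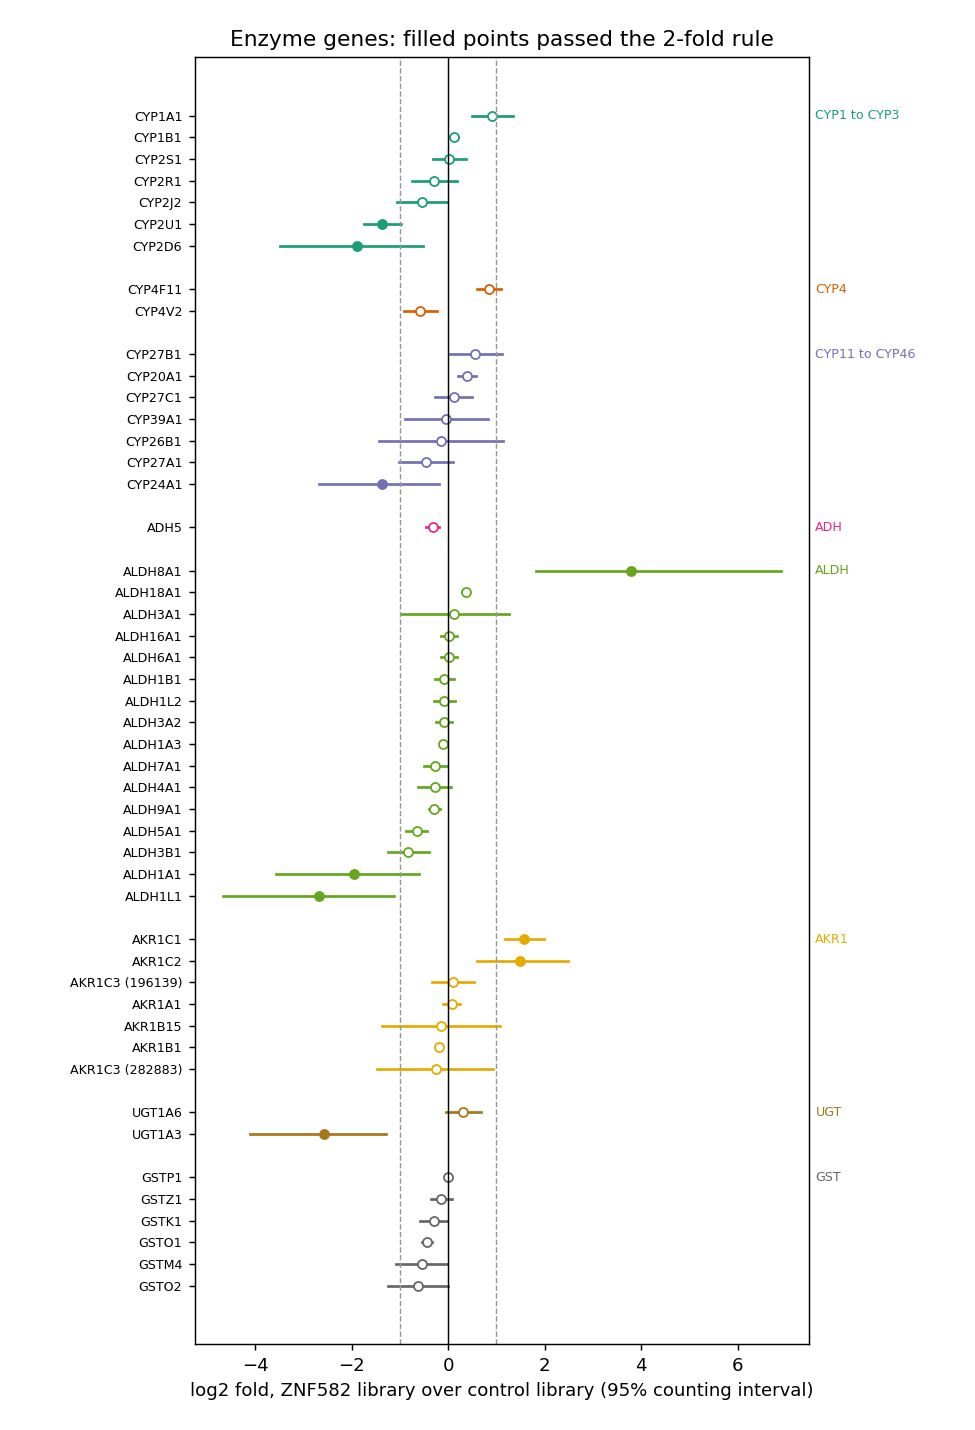
Log2 fold of the ZNF582 library over the control library for each member, with exact 95% counting intervals, coloured by family; filled points passed the 2-fold rule and dashed lines mark 2-fold. ALDH8A1 at 3.80 and ALDH1L1 at -2.68 were the farthest from 0, both with wide intervals.

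The P450s of families CYP1 to CYP3, which oxidise drugs, carcinogens, fatty acids and vitamin D, went in both directions. Of 13 candidates 7 had enough counts, 0 were higher and 2 lower, and the median log2 fold was -0.29. CYP1B1, an aryl hydrocarbon receptor target that oxidises polycyclic hydrocarbons and oestrogens, carried most of the family's level. It stood at 11.9 FPKM in the ZNF582 library against 11.8 FPKM in control cells (2124 against 1754 counts), or 71.6% and 65.9% of the summed FPKM of these genes. Its log2 fold was 0.12 (0.03 to 0.21), so the 2 libraries were nearly level. CYP1A1, the best known target of the same receptor, had 145 counts in the ZNF582 library against 69 in control cells. That is 1.89-fold higher (1.41 to 2.55), short of the 2-fold rule. The third CYP1 gene, CYP1A2, had 4 counts against 0.

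CYP2U1, a fatty acid hydroxylase, was lower in the ZNF582 library. It lies on the plus strand of chromosome 4 from 107931369 to 107953457 (GRCh38) and had 83 counts in the ZNF582 library against 192 in control cells, or 0.538 against 1.501 FPKM. The fold was 2.58-fold lower (1.98 to 3.38). It is the one lower member with more than 100 counts. None of its 100-base transcript windows occurs in another gene's transcripts, compared in the sense direction only. A pair of antisense genes share exonic bases with it, AC096564.1 with 2 counts against 1 and CYP2U1-AS1 with 2 against 0. CYP2D6 (chromosome 22, 42126499 to 42130906, minus strand), a major drug-metabolising enzyme of liver, had 6 counts in the ZNF582 library against 20 in control cells, 3.72-fold lower (1.44 to 11.3). Its near copy CYP2D7, kept out of the group as a pseudogene, had 18 against 36 counts, and 11.5% of CYP2D6 windows are shared with other genes. Summed, CYP2D6 and CYP2D7 had 24 against 56 counts, a log2 fold of -1.38 (-2.13 to -0.67).

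The other P450s of these families were not called. CYP2S1, an epithelial P450, was at 1.87 against 1.99 FPKM. CYP2J2, an epoxygenase of arachidonic acid, had 59 counts in the ZNF582 library against 77 in control cells, a log2 fold of -0.54. CYP2R1, which hydroxylates vitamin D in its first activation step, had 75 against 82 counts.

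The start regions of CYP2U1 and CYP1A1 are shown because these genes lay on opposite sides within the P450s and because CYP1A1 is a reference target of the aryl hydrocarbon receptor. Each runs from 250 bases before to 50 bases after the start given by RefSeq (GRCh38.p14), read 5′ to 3′ on the gene's strand. CYP2U1 is at chr4:107931299-107931598, plus strand, and CYP1A1 at chr15:74725479-74725778, minus strand. Capitals mark matches to GCGTG, the core of the aryl hydrocarbon response element, searched on both strands.
CYP2U1: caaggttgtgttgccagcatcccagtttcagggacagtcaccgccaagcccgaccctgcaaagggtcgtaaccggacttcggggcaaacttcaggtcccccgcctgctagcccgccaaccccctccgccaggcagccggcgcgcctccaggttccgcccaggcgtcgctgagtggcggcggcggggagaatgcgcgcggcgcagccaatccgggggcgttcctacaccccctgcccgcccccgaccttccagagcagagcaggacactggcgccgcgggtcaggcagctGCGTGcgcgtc
CYP1A1: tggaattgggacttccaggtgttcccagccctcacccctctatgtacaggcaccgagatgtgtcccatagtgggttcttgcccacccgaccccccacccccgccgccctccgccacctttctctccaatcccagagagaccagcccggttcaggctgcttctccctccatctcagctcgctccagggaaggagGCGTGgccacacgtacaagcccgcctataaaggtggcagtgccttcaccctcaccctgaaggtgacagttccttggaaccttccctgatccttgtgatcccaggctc
CYP1A1 held 1 match, 57 bases before the start, and CYP2U1 held 1 match, 40 bases after it. Of 35116 RefSeq promoters of this length 36.5% held the motif. Of the 39 members with a promoter record 16 held it in at least 1 promoter. That is a count by gene, so it cannot be set against the share by promoter. A match of 5 letters is common and does not mark a bound site.

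Family CYP4 hydroxylates the ends of fatty acid chains. Of 3 candidates 2 had enough counts, and they went in opposite directions without passing 2-fold. CYP4F11 had 397 counts in the ZNF582 library against 198 in control cells, or 2.67 against 1.60 FPKM, 1.80-fold higher (1.51 to 2.14). CYP4V2, the gene mutated in Bietti crystalline dystrophy, had 130 counts in the ZNF582 library against 174 in control cells, a log2 fold of -0.58 (-0.92 to -0.24). CYP4F3, a leukotriene hydroxylase 86.5% identical to CYP4F11 in protein sequence, had 10 counts against 2. Both measured CYP4F genes had more reads in the ZNF582 library, and their sum was 407 against 200 counts.

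Among P450s of sterol, vitamin D and retinoid metabolism (CYP11 to CYP46), 7 of 11 candidates had enough counts. Of these 0 were higher and 1 lower, with a median log2 fold of -0.04. CYP24A1, which inactivates vitamin D hormone, lies on chromosome 20 from 54153449 to 54173973, minus strand. It had 9 counts in the ZNF582 library against 21 in control cells, 2.60-fold lower (1.14 to 6.45). CYP27B1, which makes the active hormone, had 77 against 47 counts, a log2 fold of 0.56 (0.01 to 1.11), and was not called. These enzymes of opposite function lay on opposite sides of 0, both on fewer than 100 reads per library. CYP20A1, an orphan P450 with no settled substrate, was the family's highest gene at 1.92 against 1.59 FPKM, a log2 fold of 0.39 (0.20 to 0.58). CYP27C1, a retinol desaturase, had 130 against 108 counts. CYP27A1, a mitochondrial sterol hydroxylase, had 52 against 64 counts, and CYP39A1, which acts on oxysterols, 26 against 24. The retinoic acid hydroxylases were near the limit of detection, with 12 against 12 counts for CYP26B1, 3 against 0 for CYP26A1 and 0 against 5 for CYP26C1.

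ADH5, the glutathione-dependent formaldehyde dehydrogenase, was the 1 alcohol dehydrogenase listed. It had 834 counts in the ZNF582 library against 936 in control cells, or 6.24 against 8.44 FPKM, a log2 fold of -0.32 (-0.46 to -0.19).

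Aldehyde dehydrogenases formed the largest family, with 16 members of 18 candidates, 1 higher, 2 lower and a median log2 fold of -0.10. The abundant ones were nearly level. ALDH1A3, which oxidises retinaldehyde to retinoic acid, stood at 39.7 FPKM in the ZNF582 library against 46.5 FPKM in control cells (4780 against 4648 counts), a log2 fold of -0.12 (-0.17 to -0.06). ALDH18A1, which makes the proline precursor pyrroline carboxylate, stood at 42.5 against 35.9 FPKM, a log2 fold of 0.36 (0.29 to 0.43). ALDH9A1, an enzyme of carnitine and aminobutyrate synthesis, stood at 15.6 against 20.6 FPKM, a log2 fold of -0.29. ALDH18A1 was thus the one of these 3 with a fold above 0, and none was called.

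Retinaldehyde dehydrogenases other than ALDH1A3 were scarce. ALDH1A1, a widely used marker of stem-like tumour cells, lies on chromosome 9 from 72900662 to 73080442, minus strand. It had 6 counts in the ZNF582 library against 21 in control cells, or 0.0927 against 0.391 FPKM, 3.90-fold lower (1.52 to 11.8). ALDH1A2 had 6 against 12 counts and was below the limit. ALDH1A3 alone gave more than 100 times the FPKM of ALDH1A1 in both libraries, at 39.7 against 0.0927 FPKM in the ZNF582 library and 46.5 against 0.391 FPKM in the control library.

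The folate enzymes ALDH1L1 and ALDH1L2, which oxidise formyl-tetrahydrofolate in cytosol and mitochondria, differed from each other. ALDH1L1 (chromosome 3, 126103562 to 126197994, minus strand) had 4 counts in the ZNF582 library against 23 in control cells, 6.41-fold lower (2.19 to 25.5). ALDH1L2 had 362 against 344 counts, a log2 fold of -0.08 (-0.30 to 0.13). The abundant mitochondrial form was level, and the call was on the scarce cytosolic one.

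ALDH8A1, an enzyme of tryptophan breakdown along the kynurenine pathway, was the 1 higher aldehyde dehydrogenase. Its position is chromosome 6, 134917390 to 134950122, minus strand. It had 31 counts in the ZNF582 library against 2 in control cells, or 0.252 against 0.0196 FPKM. The ratio of 13.9 had an interval from 3.54 to 119.9, since the control count was 2. No exonic overlap and no shared window was found for it.

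The remaining aldehyde dehydrogenases lay near or below 0, and none was called. ALDH5A1, which clears succinic semialdehyde from GABA breakdown, had 275 counts in the ZNF582 library against 389 in control cells, 1.58-fold lower (1.35 to 1.85). ALDH3B1, which oxidises lipid aldehydes, had 78 against 124 counts, 1.77-fold lower (1.32 to 2.38). Neither passed the rule. ALDH4A1 of proline breakdown and ALDH7A1 of lysine breakdown stood at -0.28 and -0.26 on the log2 scale. ALDH1B1, ALDH3A2, ALDH6A1 and ALDH16A1 lay between -0.09 and 0.02. ALDH3A1, an enzyme of cornea and smoke-exposed airway epithelium, was near the limit at 17 against 14 counts. ALDH2, outside the symbol pattern, had 150 against 187 counts, a log2 fold of -0.47 (-0.79 to -0.16).

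**Figure D3:**
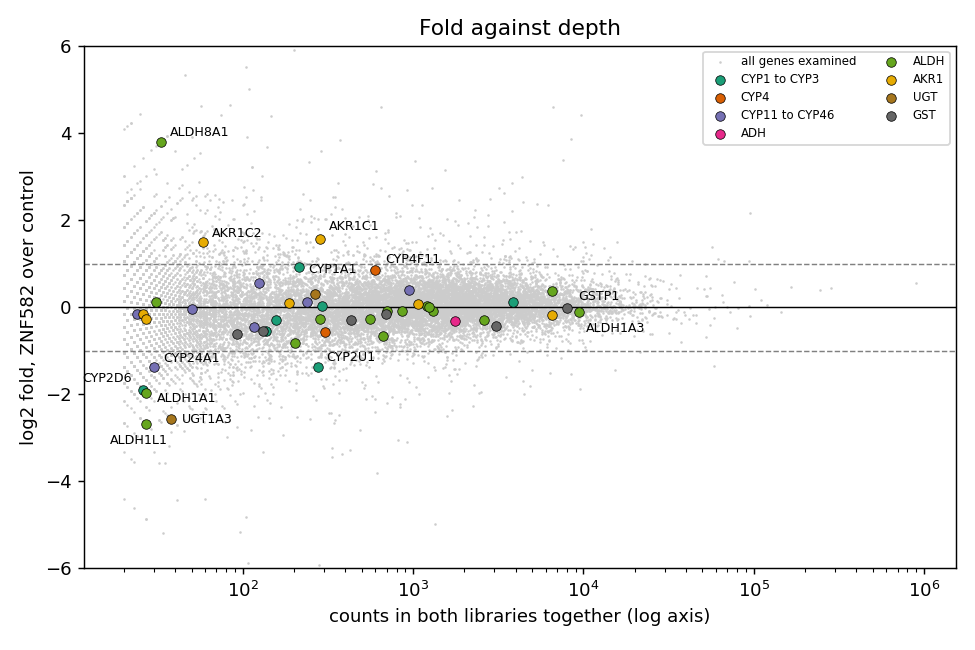
Log2 fold of the ZNF582 library over the control library against the counts of both libraries together (log axis); grey points are the genes examined, of which 6 lie beyond the drawn range, and coloured points are the members by family. Called members sit mostly at the left, below 100 counts, while members above 1000 counts lie between the dashed 2-fold lines.

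AKR1C1 and AKR1C2, which inactivate progesterone and dihydrotestosterone, were higher in the ZNF582 library, and AKR1A1, AKR1B1 and AKR1C3 were not called. The family had 7 members of 9 candidates, 2 higher, 0 lower and a median log2 fold of 0.07, which was -0.04 when scaled by total counts alone. AKR1C1 had 219 counts in the ZNF582 library against 66 in control cells, or 1.20 against 0.436 FPKM, 2.98-fold higher (2.25 to 3.98). AKR1C2 had 44 counts in the ZNF582 library against 14 in control cells, or 0.256 against 0.0983 FPKM, 2.82-fold higher (1.52 to 5.57). AKR1C3, which makes testosterone and prostaglandin F, had 101 against 85 counts, a log2 fold of 0.09 (-0.34 to 0.53). A second and shorter AKR1C3 record had 13 against 14 counts. AKR1B1, aldose reductase, was the family's most abundant gene at 23.0 against 28.4 FPKM, a log2 fold of -0.19 (-0.26 to -0.12). AKR1A1, aldehyde reductase, had 580 against 495 counts and AKR1B15 had 13 against 13.

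AKR1C1 and AKR1C2 are near copies, so the division of reads between them is uncertain. Their proteins are 97.8% identical, and those of AKR1C1 and AKR1C3 87.6%. Of the 100-base windows in AKR1C1 transcripts 16.3% also occur in another gene, and of those in AKR1C2 28.3%. Only 3.85% of AKR1C3 windows are shared. Summed, AKR1C1 and AKR1C2 had 263 counts in the ZNF582 library against 80 in control cells, 2.95-fold higher (2.29 to 3.84). The sum over all 3 genes was 377 against 179 counts, 1.89-fold higher (1.58 to 2.27), below the 2-fold rule. The deposited spans of AKR1C1 (chromosome 10, 4963253 to 5107522, plus strand) and AKR1C2 (4922564 to 5135226, minus strand) overlap each other and that of AKR1C3 (5035354 to 5107686, plus strand), and are wider than those in GENCODE 29.

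The AKR1C1 and AKR1C2 start regions are shown because these neighbours were the higher aldo-keto reductases. They are RefSeq regions of GRCh38.p14, at chr10:4963165-4963464 on the plus strand and chr10:5003808-5004107 on the minus strand, read 5′ to 3′. Capitals mark bases with no identical partner in the alignment of the pair.
AKR1C1: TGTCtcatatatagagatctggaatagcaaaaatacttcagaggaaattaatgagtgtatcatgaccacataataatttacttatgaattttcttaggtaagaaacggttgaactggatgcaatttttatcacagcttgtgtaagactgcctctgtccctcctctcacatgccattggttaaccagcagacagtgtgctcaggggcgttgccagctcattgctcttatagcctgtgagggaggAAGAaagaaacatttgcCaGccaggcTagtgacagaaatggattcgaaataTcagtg
AKR1C2: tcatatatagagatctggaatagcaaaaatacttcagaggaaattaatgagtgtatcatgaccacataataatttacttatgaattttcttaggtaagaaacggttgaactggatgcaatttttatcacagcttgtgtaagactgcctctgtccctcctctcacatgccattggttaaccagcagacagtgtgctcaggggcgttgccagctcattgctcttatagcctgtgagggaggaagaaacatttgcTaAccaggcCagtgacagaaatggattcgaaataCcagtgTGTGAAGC
Of 292 aligned base pairs 288 were identical, or 98.6%, with 4 substitutions. The AKR1C1 window begins 4 bases earlier and holds an extra run of 4 bases, and the AKR1C2 window runs 8 bases further. Neither window held GCGTG or TGACNNNGC, the core of the antioxidant response element. Near identity was thus seen in the start regions as well as in the proteins.

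**Figure D4:**
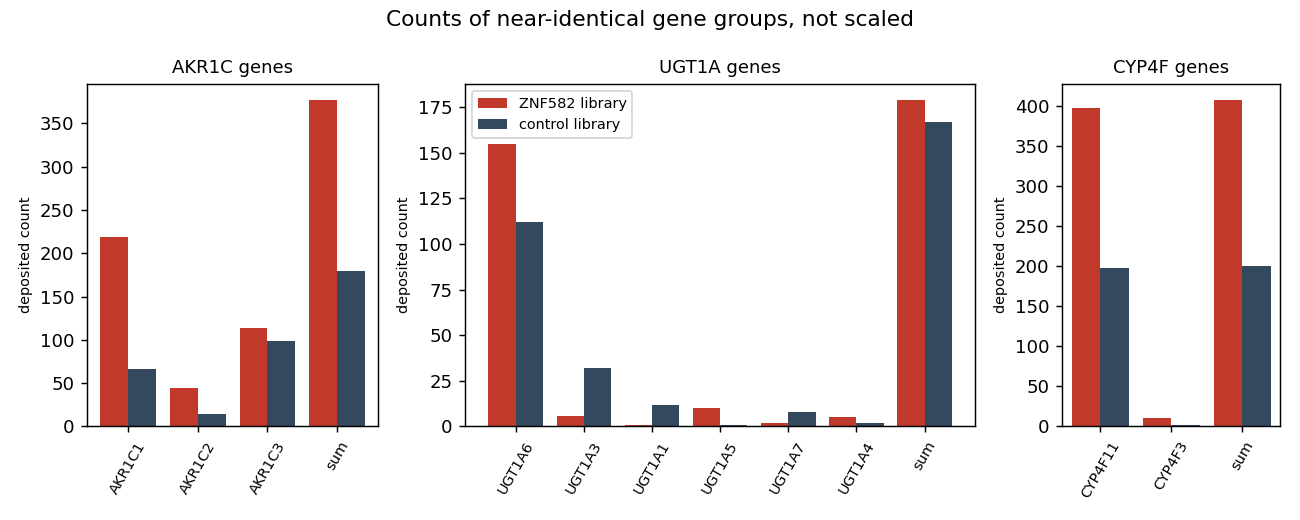
Deposited counts, not scaled for depth, of the AKR1C, UGT1A and CYP4F genes and their sums, with the ZNF582 library as the left bar of each pair and the control library as the right; AKR1C3 is the sum of both its records. The AKR1C1 and AKR1C2 bars differ in the same direction, while the UGT1A genes differ in both directions and sum to 179 against 167.

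Glucuronosyltransferases were the scarcest family, with 2 members of 8 candidates. UGT1A3 was called lower and UGT1A6 was not called. UGT1A6, which conjugates phenols, had 155 counts in the ZNF582 library against 112 in control cells, a log2 fold of 0.31 (-0.05 to 0.68). UGT1A3 (chromosome 2, 233729108 to 233773299, plus strand), which conjugates bile acids and steroids, had 6 counts in the ZNF582 library against 32 in control cells, 5.94-fold lower (2.45 to 17.4). The UGT1A genes are alternative first exons on chromosome 2 joined to shared downstream exons, and 75.6% of UGT1A3 windows and 58.6% of UGT1A6 windows occur in another gene. The 4 other UGT1A genes listed went both ways below the count limit. UGT1A1, the bilirubin-conjugating enzyme, had 1 count in the ZNF582 library against 12 in control cells, UGT1A7 had 2 against 8, UGT1A5 had 10 against 1 and UGT1A4 had 5 against 2. Summed over the 6 genes, the counts were 179 against 167, a log2 fold of -0.06 (-0.37 to 0.26). The interval of the sum includes 0. How reads in shared exons were assigned to single UGT1A genes is not stated in the labels or headers. The UGT2B genes UGT2B4 and UGT2B7 had 0 against 4 and 2 against 0 counts.

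All 6 glutathione S-transferases had a log2 fold below 0, as had 50.5% of all genes examined, and 0 passed 2-fold. The median was -0.37 with TMM factors, and -0.48 with total counts alone, beside -0.01 and -0.12 for all genes. GSTP1, the pi-class enzyme that is often high in squamous carcinoma, was the most abundant of the 48 members. It stood at 50.7 FPKM in the ZNF582 library against 55.3 FPKM in control cells (4205 against 3808 counts), with a log2 fold of -0.01 (-0.08 to 0.05). GSTO1, an omega-class thioltransferase, had 1379 counts in the ZNF582 library against 1679 in control cells, 1.36-fold lower (1.26 to 1.46). Its neighbour GSTO2, a dehydroascorbate reductase, had 39 against 54 counts, a log2 fold of -0.63 (-1.26 to -0.01). GSTK1, the kappa-class enzyme, had 206 against 228 counts, a log2 fold of -0.30 (-0.58 to -0.02). GSTZ1, the maleylacetoacetate isomerase of tyrosine breakdown, had 349 against 347, a log2 fold of -0.15 (-0.37 to 0.07). The intervals of GSTP1 and GSTZ1 thus included 0. GSTM4, of the mu class, had 57 against 75 counts, a log2 fold of -0.55 (-1.08 to -0.04). Of its windows 7.77% were shared with other mu-class genes. GSTA4, of the alpha class, had 3 against 8 counts and fell short of the limit. GSTT2 and GSTT2B, set aside by their descriptions, had 15 against 31 and 17 against 19 counts.

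The GSTP1 start region is shown because this gene gave the highest level of the group and held a match to TGACNNNGC. It is the RefSeq region at chr11:67583562-67583861, plus strand, GRCh38.p14, with the match in capitals.
GSTP1: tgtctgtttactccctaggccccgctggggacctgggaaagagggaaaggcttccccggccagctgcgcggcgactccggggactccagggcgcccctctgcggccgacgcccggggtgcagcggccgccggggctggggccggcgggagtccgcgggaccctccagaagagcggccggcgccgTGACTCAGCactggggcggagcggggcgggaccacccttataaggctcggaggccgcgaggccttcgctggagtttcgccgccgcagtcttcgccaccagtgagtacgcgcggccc
The match begins 66 bases before the start. Of 35116 promoters 13.3% held TGACNNNGC on either strand. Among the 39 members with a promoter record 5 held it, namely GSTP1, GSTO1, CYP4F11, CYP4V2 and UGT1A6. This is again a count by gene, so it cannot be set against the share by promoter.

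Across members, 15 of 48 shared exonic bases with another listed gene by GENCODE exons, among them the called genes CYP2U1 and UGT1A3. AKR1C1 and AKR1C2 were not among the 15. Their deposited spans are wider than those in GENCODE and overlap each other and AKR1C3, so sharing of exons in the deposited models was not tested. Windows were compared in the sense direction only, so overlap with antisense genes is not counted among them. Of 47 members with transcript windows, 32 shared none with another gene, 9 shared less than 10% and 6 shared 10% or more. Those 6 were AKR1C1, AKR1C2, ALDH4A1, CYP2D6, UGT1A3 and UGT1A6, so that 4 of the 9 called genes had a substantial part of their sequence in common with another gene. ALDH8A1, ALDH1A1, ALDH1L1, CYP24A1 and CYP2U1 shared no window, though CYP2U1 shares exonic bases with antisense genes.

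Partners and regulators of these enzymes were examined in 10 lists with 167 distinct genes, of which 127 had at least 20 counts. Of these 5 were higher and 10 lower, or 11.8% called, against the background of 9.27%, with a median log2 fold of -0.13. P450s receive electrons from reductases and ferredoxin. Of 12 such redox partners 0 were higher and 1 lower, FDXR, the mitochondrial ferredoxin reductase, with 126 counts in the ZNF582 library against 238 in control cells, 2.11-fold lower (1.69 to 2.63). PGRMC1, a haem-binding partner of P450s, was at 47.2 against 58.9 FPKM, and CYB5R4 at 7.90 against 8.07 FPKM. The list's median log2 fold was -0.16, with 4 genes above 0 and 8 below. Of the P450s outside the symbol pattern, CYP51A1 of cholesterol synthesis had 1868 against 1738 counts and CYP7B1, an oxysterol hydroxylase, had 61 against 69 counts.

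The aryl hydrocarbon receptor list had 0 higher and 2 lower of 9. AHR itself had 1947 counts in the ZNF582 library against 1642 in control cells, a log2 fold of 0.09, and its partner ARNT 832 against 746. PTGES3, the cochaperone p23 of the cytosolic receptor complex, was 2.71-fold lower (2.61 to 2.80), with 4481 against 10886 counts. ARNT2, a paralogue of ARNT, was 2.21-fold lower (1.60 to 3.08), with 59 against 117 counts. The receptor's target TIPARP had 2457 against 1256 counts, a log2 fold of 0.81, and the repressor AHRR 31 against 18. Neither passed 2-fold, as CYP1A1 did not. NQO1, a target of both this receptor and NRF2, was level at 75.7 against 83.6 FPKM. Xenobiotic nuclear receptors had 0 called of 8, with a median of -0.21. RXRB was at 7.88 against 7.08 FPKM and PPARD at 5.12 against 6.65 FPKM. VDR was the farthest of the 8 from 0, with 753 counts in the ZNF582 library against 1238 in control cells. Its log2 fold was -0.87 (-1.01 to -0.74).

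Of 22 NRF2 regulators and targets outside the group, 3 were higher and 0 lower, with a median log2 fold of 0.11 and 9 below 0. NRF2 itself, NFE2L2, had 1206 counts in the ZNF582 library against 1752 in control cells, a log2 fold of -0.70. Its partners went both ways. MAFF had 427 against 671 counts, a log2 fold of -0.81. MAFG had 855 against 417, a log2 fold of 0.88, and MAFK 879 against 488, a log2 fold of 0.69. None of these was called. The higher genes were TXNRD1, thioredoxin reductase, at 145 against 74.8 FPKM (2.10-fold), the NRF2 target OSGIN1 at 512 against 208 counts (2.21-fold), and KEAP1, which targets NRF2 for degradation, at 668 against 283 counts (2.12-fold). TXNRD1 and KEAP1 lay just under 2-fold with total counts alone, at 0.96 and 0.97 on the log2 scale. SRXN1, sulfiredoxin, was at 123 against 82.3 FPKM and was not called.

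Retinoid handling genes had 0 higher and 2 lower of 15, with a median of -0.27 and 11 below 0. DHRS3, which reduces retinaldehyde back to retinol and is induced by retinoic acid, had 137 counts in the ZNF582 library against 565 in control cells, 4.60-fold lower (3.81 to 5.58). RDH14 and RDH11, retinol dehydrogenases, were at 13.5 against 10.9 and 7.59 against 9.76 FPKM. The receptors RARA and RARG stood at -0.65 and -0.84 on the log2 scale and the retinoic acid carrier CRABP2 at -0.87, none of them called. DHRS3 was the farthest of these genes from 0, while the main retinaldehyde dehydrogenase ALDH1A3 was nearly level.

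**Figure D5:**
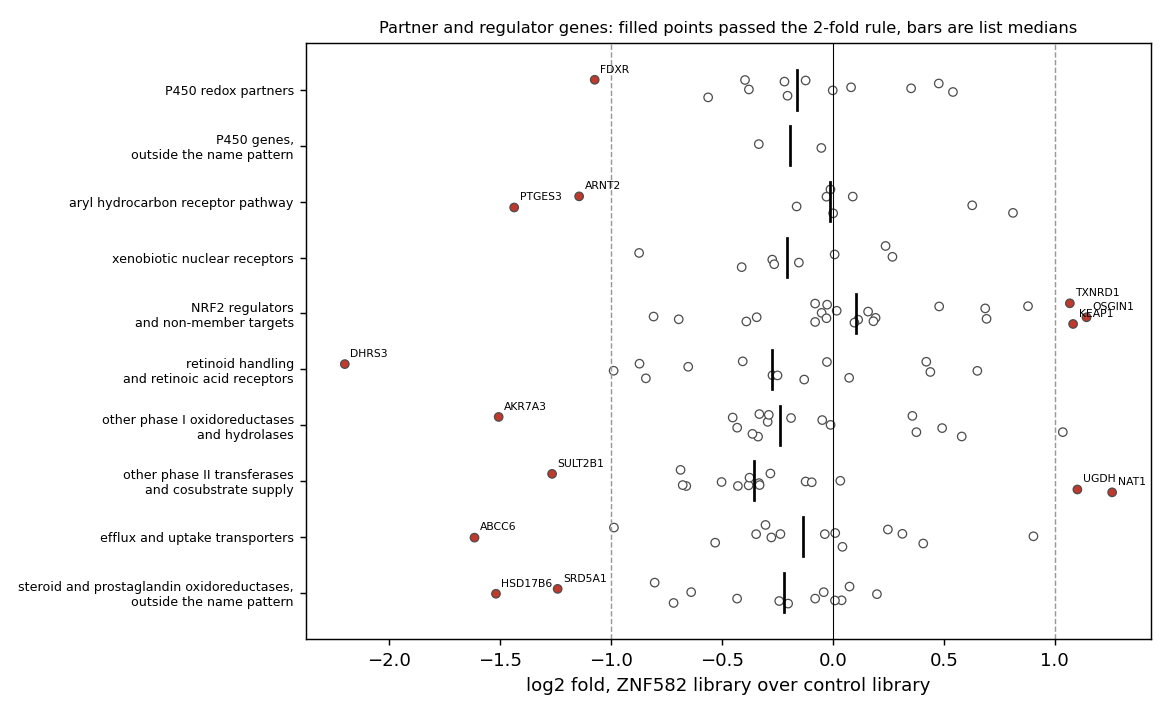
Log2 fold of the ZNF582 library over the control library for the genes with at least 20 counts in the 10 lists of partners and regulators, 1 of them not drawn; filled points passed the 2-fold rule, bars are list medians and dashed lines mark 2-fold. DHRS3 lies farthest to the left at -2.20, and the called genes on the right are TXNRD1, OSGIN1, KEAP1, UGDH and NAT1.

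Other phase I enzymes had 0 higher and 1 lower of 16, with a median of -0.24. AKR7A3, an aflatoxin aldehyde reductase, had 20 counts in the ZNF582 library against 51 in control cells, 2.84-fold lower (1.66 to 5.03). Its relative AKR7A2 had 471 against 534 counts and xanthine dehydrogenase, XDH, stood at 5.88 against 7.79 FPKM. Other phase II genes had 2 higher and 1 lower of 16, with a median of -0.35. UGDH, which makes the UDP-glucuronic acid that UGTs consume, had 2409 counts in the ZNF582 library against 1007 in control cells, 2.15-fold higher (1.99 to 2.31), and a log2 fold of 0.99 with total counts alone. NAT1, an arylamine acetyltransferase, had 56 against 21 counts, 2.39-fold higher (1.43 to 4.16). SULT2B1, a sterol sulfotransferase, had 19 against 41 counts, 2.41-fold lower (1.36 to 4.39). Glutathione reductase, GSR, and glutathione synthetase, GSS, were at 42.7 against 50.3 and 20.6 against 23.8 FPKM.

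Transporters had 0 higher and 1 lower of 14. ABCC6 had 8 counts in the ZNF582 library against 22 in control cells, 3.07-fold lower (1.31 to 7.96). ABCC4, an efflux pump for organic anions, was at 12.3 against 13.6 FPKM and SLCO1B3, an organic anion uptake carrier, at 12.3 against 11.2 FPKM. Steroid oxidoreductases outside the group had 0 higher and 2 lower of 14, with a median of -0.22. SRD5A1, a steroid reductase that makes dihydrotestosterone, a substrate of AKR1C2, had 373 counts in the ZNF582 library against 791 in control cells, 2.36-fold lower (2.09 to 2.68). HSD17B6 had 7 against 18 counts, 2.87-fold lower (1.14 to 8.12). HSD17B10 and HSD17B12, both abundant, were not called, at 29.6 against 27.9 and 17.1 against 18.4 FPKM.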

How the data were processed

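Gene expression in 2 HN6 libraries was measured by RNA sequencing. The submitters' processing notes name HISAT2 2.0.4, StringTie 1.3.0 and GRCh38. Neither labels nor headers state the counting program, annotation release, strand setting or filters. Each gene has, per the file headers, a count and an FPKM level for both libraries in a single table of the authors. Because their origin is unstated, the deposited whole-number counts were handled as estimated counts. 1 record broken over 2 lines was rejoined. The FPKM values deposited by the authors give levels per length and carry no TMM factors.

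Counts were scaled by library totals with TMM factors (0.962 for the ZNF582 library, 1.04 for control) from edgeR 4.0.16 in R 4.3.3, over the 16669 genes whose counts summed to 20 or more. The fold interval is the exact 95% Clopper-Pearson interval conditional on the sum of both counts. No p-value was computed. Intervals cover counting error only, because each group had 1 library. They are exact for independent whole counts, which the deposited counts may not be. Reads carry no molecular identifiers, so repeated copies of a fragment were not told apart. The procedure was tested on simulated counts. DESeq2 1.42.0 gave alternative size factors.

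Exons, transcript windows of 100 bases and translated coding sequences came from GENCODE 29 on GRCh38, and promoters from RefSeq. Near copies were set at 80% protein identity. Identity was computed from GENCODE coding sequences in place of RefSeq proteins, and 39 of 47 symbols had a promoter record. Members, lists and tests were chosen with earlier results of these data known. Genes named were those past the rule, the 3 highest of each family, near copies and, from each list, called genes and the 2 highest. The other members, NFE2L2, MAFF, AHR, ARNT, TIPARP, AHRR, NQO1, the retinoid genes not called, ALDH2 and the CYP1A1, AKR1C2 and GSTP1 promoters were added after their values were seen. MAFG, MAFK, VDR and PECAM1 were added in the same way. Scripts ran under Python 3.11.15 with scipy 1.17.1 for intervals, Biopython 1.88 for alignments and pandas 2.3.3 for tables. The values of 1 called list gene are not reported here.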

Additional observations from a re-analysis of the deposited data

How the results depend on the processing

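The 3 higher and 6 lower members were the same under total counts alone, total counts without ZNF582 and DESeq2 size factors. From deposited FPKM with a pseudocount of 1 the counts were 0 and 0, since low levels are pulled towards 1. With at least 100 counts they were 1 and 1 of 35 members. The called share was then 8.70% against 8.66% of all genes at 100 to 1000 counts, and 0% against 3.39% above 1000. With a pseudocount of 0.1 they were 2 and 4. Without a filter 5 were higher and 8 lower. At 1.5-fold 5 of 48 members were higher and 9 lower, against 1650 and 1823 of 16669 genes. At 4-fold 1 was higher and 2 lower, against 187 and 131 of all genes. Without members that share exons 3 were higher and 4 lower. Sharing was judged by GENCODE exons, so AKR1C1 and AKR1C2 stayed in although their deposited spans overlap. With near copies summed 1 was higher and 5 lower, and the AKR1C sum of 1.89-fold missed the rule. The UGT median log2 fold was -1.13 in the main setting, over UGT1A3 and UGT1A6. Its sign reversed, to 0.31, with at least 100 counts, where UGT1A6 alone was left. With near copies summed it was -0.056. Without members that share exons no UGT gene was left. The CYP4 median, 0.14 in the main setting, became 0.85 without a filter and without members that share exons. Over all genes 395 were higher and 352 lower with at least 100 counts, and 153 and 158 from FPKM with a pseudocount of 1. They were 482 and 752 with a pseudocount of 0.1, and 924 and 1105 without a filter. These are counts of genes, and the number examined changes with the filter. Of the list genes, 2 were higher with total counts alone, 3 without ZNF582 in the totals, 0 from FPKM with a pseudocount of 1 (3 lower) and 1 with a pseudocount of 0.1. With at least 100 counts 5 list genes were lower. At 1.5-fold 10 were higher and 22 lower, and at 4-fold 0 and 1. Leaving out a library was not possible with 1 per group. No paired analysis was possible because each group had 1 library. Low counts limit the precision of 7 of the 9 calls, which rest on fewer than 100 counts.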
